A study of Mus musculus with 8 samples.

Results

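Bone marrow LSK cells of mice given intravenous glucose plus a lipid emulsion were compared directly with LSK cells of mice given glucose alone. The comparison takes 4 of the 8 libraries of the series, 2 per treatment, assigned by their treatment labels, and asks what the lipid emulsion adds to glucose. All mice were C57BL/6 males aged 12 to 13 weeks that were fasted for more than 14 hours before each early morning injection, given for 7 days, and had free access to food in the daytime. Glucose was given at 2 g/kg in both groups, and the glucose with lipid group also received Intralipid 20% at 6 ml/kg. Marrow was taken from femurs and tibias on day 8, Lineage- Sca-1+ c-Kit+ (LSK) cells were sorted, and RNA came from about 10000 cells per extract. The labels name the libraries of a group biological replicates but do not say whether each is 1 mouse or a pool, so p-values measure the spread between these libraries. Both glucose with lipid libraries carry a tag in their column names that both glucose libraries lack. The lipid treatment and the tag therefore cannot be told apart within these 4 libraries. The sample letters follow the same split: the glucose with lipid libraries are H and I, and the glucose libraries A and B. The 4 libraries from mice injected with phosphate-buffered saline (PBS) were used to show how far a gene differed between 2 tagged libraries (PBS H and I) and 2 untagged libraries (PBS J and K) without treatment. They also entered the gene filter and the estimate of spread, and PBS levels are given beside those of the treated libraries.

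The LSK fraction of mouse marrow holds the haematopoietic stem cells and the multipotent progenitors that give rise to all blood lineages. Fatty acids that enter a cell can be bound by PPAR receptors, which switch on genes of fatty acid transport, storage and oxidation, while sterols regulate cholesterol synthesis through SREBP and its removal through LXR. Mature red cells and neutrophils are the most abundant products of marrow, and their haemoglobin and granule proteins are encoded by some of its most abundant transcripts.

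Expression is given as FPKM, in which fragments are divided by the length of the transcript and the size of the library, and differences as log2(FPKM + 1), glucose with lipid minus glucose, with standard errors (SE) from limma. Fragment counts were not used here. From the steps between low values, the depth of the 4 treated libraries stood at 1 for glucose 1, 0.892 for glucose 2, 0.786 for glucose with lipid 1 and 1.14 for glucose with lipid 2, relative to glucose 1. Between 11186 and 11771 genes reached 1 FPKM in each of the 8 libraries. Replicates correlated at r = 0.966 across genes in glucose and 0.935 in glucose with lipid, and at 0.967 and 0.963 in the PBS pairs. Glucose with lipid 1 stood apart: 426 genes were more than 1 log2 unit higher in it than in glucose with lipid 2, and 120 were lower by as much. Medians of gene lists are given with and without it where they moved.

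The 10 tested genes that define or mark the LSK gate gave no call. Their summed level was 1860 and 2140 FPKM in glucose and 1660 and 2059 FPKM in glucose with lipid, and their median log2 difference was -0.10. Without glucose with lipid 1 the median was 0.05 with 7 of 10 above 0, and without glucose with lipid 2 it was -0.29, so the gate genes were lower in glucose with lipid 1. Kit, the stem cell factor receptor used in the sort, stood at 174 and 198 FPKM in glucose and 164 and 187 FPKM in glucose with lipid. Ly6a, which encodes Sca-1, stood at 351 and 418 FPKM in glucose and 319 and 424 FPKM in glucose with lipid. None of the 10 had both glucose with lipid libraries beyond both glucose libraries, in either direction.

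Of 11931 genes tested, 2 were higher with lipid at an adjusted p under 0.05 (0.0168% of genes) and 0 were lower (0%) in limma, while 638 genes (5.35%) had an unadjusted p under 0.05 in either direction. Both called genes encode globin chains. With 2 libraries against 2, an exact permutation test cannot give a p below 0.333, so calls rest on the spread that limma pools across genes and libraries. The median SE was 0.19, and 10105 genes (84.7%) had a 95% interval for the difference that lay wholly between -1 and 1. Differences above 1 were seen in 210 genes and differences below -1 in 35. Without glucose with lipid 1, these were 89 and 85 genes, and without glucose with lipid 2, 408 genes exceeded 1. Both glucose with lipid libraries were above both glucose libraries in 2042 genes (17.1%) and below both in 1937 (16.2%), which is the background for the counts of list members below. The calls changed with the libraries used. Leaving out 1 library leaves 1 in its group, so no replicate spread of that group enters the fit. Counts of calls from such fits are not given.

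The called genes were Beta-s, the listed name of the beta-globin gene Hbb-bs, and Hba-a1, an alpha-globin gene. On GRCm38, Beta-s lies at chr7:103826534-103828096 on the minus strand and Hba-a1 at chr11:32283511-32284465 on the plus strand. The 250 bases upstream of their RefSeq start sites (GRCm38.p6) are shown with those of Alas2, which encodes the first enzyme of haem synthesis in red cell precursors, because the 3 genes were high in the same libraries. They span chr11:32283422-32283671 for Hba-a1, chr7:103827929-103828178 for Hbb-bs and chrX:150547167-150547416 for Alas2. The gene positions above are from GENCODE, whose starts lie further upstream, so the Hba-a1 and Hbb-bs windows fall partly inside those positions. Capitals mark the letters GATAA (the core read by GATA factors), CACCC (read by factors of the KLF family) and CCAAT on either strand. In Alas2 the GATA core reads as TTATC and the KLF core as GGGTG, since both lie on the other strand.
Hba-a1: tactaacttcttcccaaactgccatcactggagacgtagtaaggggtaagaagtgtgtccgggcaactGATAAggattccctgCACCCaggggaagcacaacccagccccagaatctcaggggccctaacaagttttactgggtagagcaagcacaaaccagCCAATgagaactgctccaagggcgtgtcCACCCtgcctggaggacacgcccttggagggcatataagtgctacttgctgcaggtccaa
Hbb-bs: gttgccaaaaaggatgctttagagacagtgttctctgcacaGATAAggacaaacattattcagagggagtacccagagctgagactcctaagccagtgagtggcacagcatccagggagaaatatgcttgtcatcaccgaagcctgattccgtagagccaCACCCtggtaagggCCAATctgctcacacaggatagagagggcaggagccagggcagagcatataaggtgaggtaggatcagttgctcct
Alas2: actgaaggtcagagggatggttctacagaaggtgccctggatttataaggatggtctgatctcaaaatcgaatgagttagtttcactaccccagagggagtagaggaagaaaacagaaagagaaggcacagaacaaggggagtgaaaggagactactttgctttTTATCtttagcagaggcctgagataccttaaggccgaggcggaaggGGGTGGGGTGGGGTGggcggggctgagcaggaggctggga
The Hba-a1 sequence held 1 GATAA, 2 CACCC and 1 CCAAT, the Hbb-bs sequence held 1 of each, and the Alas2 sequence held 1 GATAA, 3 CACCC and 0 CCAAT. Among 32851 RefSeq promoters of this length, 22.6% held GATAA, 52.0% CACCC and 33.8% CCAAT on either strand. These matches describe letters in the windows and were not tested as binding sites.

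Erythroid genes gave both calls, and the called genes were also higher in the tagged than in the untagged PBS pair. Beta-s was at 47.6 and 62.5 FPKM in glucose and at 945 and 515 FPKM in glucose with lipid, against 201 and 166 FPKM in the tagged PBS pair and 24.4 and 19.4 FPKM in the untagged PBS pair. The glucose with lipid libraries were the highest of all 8, and each tagged library was above each untagged library. Means were 55.1 ± 10.6 FPKM in glucose and 730 ± 304 FPKM in glucose with lipid (SD, n = 2). The log2 difference was 3.65 ± 0.28 (SE, 95% interval 3.01 to 4.30, limma adjusted p = 0.0172), or 12.6-fold on this scale, and 3.22 without glucose with lipid 1. Hba-a1 was at 48.6 and 65.0 FPKM in glucose and at 374 and 668 FPKM in glucose with lipid, against 164 and 134 FPKM in the tagged PBS pair and 21.3 and 20.5 FPKM in the untagged PBS pair. Its order of libraries was the same in kind: glucose with lipid above PBS H and I, these above glucose, and PBS J and K lowest. Its means were 56.8 ± 11.6 FPKM in glucose and 521 ± 208 FPKM in glucose with lipid (SD, n = 2), a log2 difference of 3.13 ± 0.26 (SE, 95% interval 2.52 to 3.74, limma adjusted p = 0.0178) and of 3.55 without glucose with lipid 1.

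The same 2 genes were called between the PBS pairs, with no treatment between them. The PBS pair difference (H and I minus J and K) was 3.01 for Beta-s and 2.77 for Hba-a1, with a limma adjusted p of 0.0173 for each. The difference between the direct difference and the PBS pair difference was 0.64 for Beta-s (95% interval -0.27 to 1.55, limma adjusted p = 0.538) and 0.36 for Hba-a1 (adjusted p = 0.723), so neither gene was called once the untreated difference was taken off. Beta-s lost its call in 7 of 19 alternative settings and Hba-a1 in 9 of 19, with adjusted p from 2.3e-04 to 0.325 for Beta-s and from 7.7e-04 to 0.325 for Hba-a1. Both were lost without filtering on low values, with a robust spread, without the mean-variance trend, with the 4 treated libraries alone, with a replicate block, and without either glucose library, and Hba-a1 also without either of PBS J and K.

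Of the 13 erythroid marker genes in the files, 10 were tested, 2 were called higher, and 9 had both glucose with lipid libraries above both glucose libraries. The median difference of the 10 was 2.89, against 0.00 over all genes tested, and it was 1.53 without glucose with lipid 1. The median PBS pair difference of the same genes was 1.64. Summed over the list, the level was 337 and 361 FPKM in glucose, 3216 and 1739 FPKM in glucose with lipid, 822 and 804 FPKM in the tagged PBS pair, and 572 and 297 FPKM in the untagged PBS pair. More cells of a type and more RNA per cell cannot be told apart in such sums from sorted populations. Alas2 was at 1.97 and 2.77 FPKM in glucose and 39.3 and 13.8 FPKM in glucose with lipid, against 4.40 and 4.66 FPKM in the tagged PBS pair and 0.35 and 0.43 FPKM in the untagged PBS pair. It followed the order of libraries seen for Hba-a1 and Beta-s, with a difference of 2.87 that did not pass (adjusted p = 0.362). Uros, an enzyme of the haem pathway, was at 18.0 and 17.3 FPKM in glucose and 27.6 and 27.2 FPKM in glucose with lipid, while the 4 PBS libraries lay between 17.5 and 21.1 FPKM. Its difference of 0.60 did not pass (adjusted p = 0.874).

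Several erythroid genes were high in 1 glucose with lipid library. Car1, carbonic anhydrase 1, was at 15.8 and 4.04 FPKM in glucose and 227 and 28 FPKM in glucose with lipid, and its difference fell from 3.14 to 1.66 without glucose with lipid 1. Slc4a1, the anion exchanger band 3, was at 0.34 and 0.82 FPKM in glucose and 23.0 and 2.2 FPKM in glucose with lipid. For Car1 and Slc4a1, glucose with lipid 1 was the higher of its pair, and glucose with lipid 2 was still above both glucose libraries. The transcription factor genes Gata1 and Klf1 were high in glucose with lipid 1 alone, at 24.7 and 28.9 FPKM, and stood at 3.46 and 1.76 FPKM in glucose with lipid 2, near the glucose libraries (3.26 and 2.98 FPKM for Gata1, 2.11 and 1.13 FPKM for Klf1).

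Globin genes of 1 family are near-identical, so reads may be divided between copies and the value of a single copy is uncertain. Hba-a2 was at 752 FPKM in glucose with lipid 1 and 18.9 FPKM in glucose with lipid 2, whereas Hba-a1 was higher in glucose with lipid 2. Hbb-b2 was at 2.31 and 0.03 FPKM in glucose but between 38.9 and 110 FPKM in the 4 PBS libraries. Summed over the alpha-globin genes, levels were 60.8 and 84.3 FPKM in glucose, 1125 and 687 FPKM in glucose with lipid, 213 and 218 FPKM in the tagged PBS pair, and 28.7 and 28.4 FPKM in the untagged PBS pair. The alpha-globin sum kept the order of libraries of Hba-a1 and passed, with a difference of 3.60 ± 0.23 (SE, limma adjusted p = 0.00475). It also passed between the PBS pairs (2.87, adjusted p = 0.00639), and the difference of these differences did not pass (0.73, adjusted p = 0.420). Summed over the beta-globin genes, levels were 256 and 268 FPKM in glucose, 1730 and 1003 FPKM in glucose with lipid, 586 and 557 FPKM in the tagged PBS pair, and 540 and 264 FPKM in the untagged PBS pair. The beta-globin sum differed by 2.33 and did not pass (limma adjusted p = 0.451). Taking these sums was chosen after the values had been seen.

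**Figure D1:**
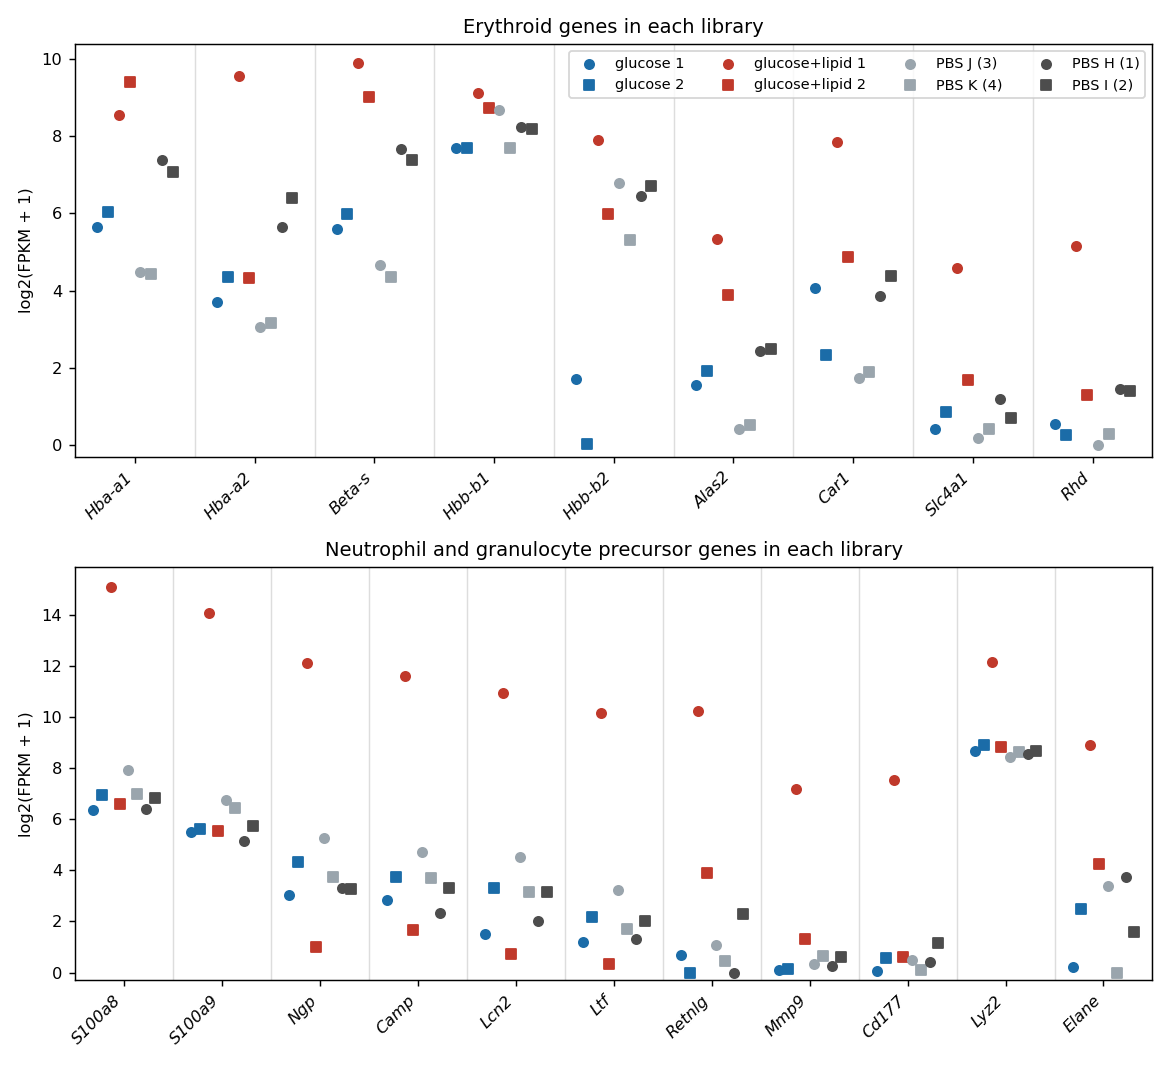
Level of 9 erythroid genes (top) and 11 neutrophil and granulocyte precursor genes (bottom) in each of the 8 libraries, as log2(FPKM + 1) on the vertical axis, with 1 point per library and colour for the group. Hba-a1 and Beta-s are high in both red glucose with lipid points and next highest in PBS H and I, while S100a8 reaches 35390 FPKM in glucose with lipid 1 alone.

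Neutrophil granule transcripts were far more abundant in glucose with lipid 1 than in the other 7 libraries. Of 17 tested neutrophil genes none was called, 7 had both glucose with lipid libraries above both glucose libraries, and the median difference was 3.42 with glucose with lipid 1 and 0.01 without it. Their summed level was 843 and 989 FPKM in glucose, 72846 FPKM in glucose with lipid 1, 922 FPKM in glucose with lipid 2 and 777 to 1065 FPKM in the PBS libraries. The list made up 9.33% of all FPKM in glucose with lipid 1 and 0.118% to 0.143% in each of the other 7 libraries. A single microRNA gene made up 18.5% to 24.2% of the same sums, so these are shares of summed FPKM and not of RNA. S100a8, which encodes a calcium-binding protein that fills neutrophil cytoplasm, was at 81.8 and 124 FPKM in glucose and 35390 and 97.1 FPKM in glucose with lipid. Its partner S100a9 was at 43.8 and 48.6 FPKM in glucose and 17287 and 45.2 FPKM in glucose with lipid. The granule genes Camp, Lcn2 and Ltf reached 3163, 1974 and 1158 FPKM in glucose with lipid 1. In glucose with lipid 2 they stood at 2.18, 0.66 and 0.25 FPKM, each below both glucose libraries.

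Elane, neutrophil elastase, marks granulocyte precursors and was at 0.17 and 4.59 FPKM in glucose and 476 and 18.2 FPKM in glucose with lipid. Retnlg, a gene of maturing neutrophils, was at 0.61 and 0 FPKM in glucose and 1194 and 14.1 FPKM in glucose with lipid. In both genes glucose with lipid 2 was also the second highest of the 8 libraries, but neither difference passed (adjusted p = 0.874). The monocyte and macrophage list had 14 tested genes, none called, with a median of 1.26 that moved to -0.06 without glucose with lipid 1. Csf1r, the receptor of the monocyte growth factor, was at 2.09 and 3.75 FPKM in glucose and 24.5 and 1.42 FPKM in glucose with lipid. The 27 tested genes of granulocyte-monocyte progenitors had a median of 0.54, and of -0.06 without that library. The part of neutrophils and monocytes in the levels of glucose with lipid 1 was not tested.

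Across all 11931 genes the direct difference did not follow the PBS pair difference. Their Pearson correlation across genes was 0.00967 and Spearman's rho was -0.0551, the contrasts share no library, and genes are not independent replicates. The PBS pairs, with no treatment between them, gave 5 genes called higher in H and I (0.0419%) and 1 called lower (0.00838%). An unadjusted p under 0.05 was reached by 2058 genes (17.2%) between the PBS pairs, which is more than the 638 between the treatments. H and I were both above J and K in 2917 genes (24.4%) and both below in 3013 (25.3%). The middle 50% of PBS pair differences spanned 0.41 log2 units, and that of the direct differences 0.28. The test of the direct difference against the PBS pair difference called 1 gene higher (0.00838%) and 1 lower (0.00838%). Its unadjusted p was under 0.05 for 1456 genes (12.2%). Both are microRNA genes listed at 0 in all 4 treated libraries, Mir3061 and Mir3112, so the calls come from the PBS libraries alone.

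**Figure D2:**
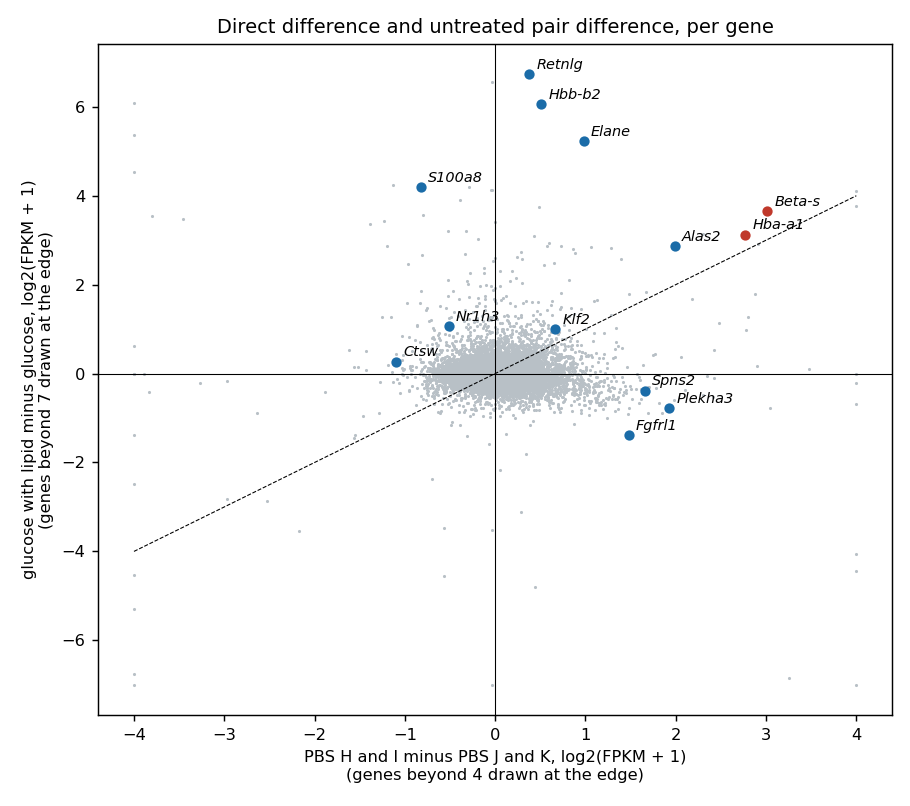
Each of 11931 tested genes by its PBS pair difference (horizontal axis) and its direct difference, glucose with lipid minus glucose (vertical axis), both as log2(FPKM + 1), with a dashed line where they are equal. Beta-s and Hba-a1 (red) lie near the line, S100a8, Elane and Hbb-b2 lie far above it, and Fgfrl1, Plekha3 and Spns2 lie below 0 on the vertical axis and above 1 on the horizontal axis.

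No gene of fatty acid handling was called. Among 19 tested PPAR and fatty acid sensing targets none was called, 2 had both glucose with lipid libraries above both glucose libraries and 4 below, and the median difference was 0.03. Cpt1a, which admits long-chain fatty acids to mitochondria, was at 46.9 and 44.9 FPKM in glucose and 42.2 and 43.4 FPKM in glucose with lipid. Its difference was -0.10 (95% interval -0.39 to 0.19). Plin2, which coats lipid droplets, was at 35.2 and 35.5 FPKM in glucose and 39.2 and 40.6 FPKM in glucose with lipid, a difference of 0.17 (95% interval -0.18 to 0.52). Cpt1a was lower and Plin2 higher in both glucose with lipid libraries, and both intervals included 0. These intervals cover lipid and tag together, so they set no limit on a rise due to lipid alone. With the PBS pair difference taken off, the 95% interval was -0.53 to 0.29 for Cpt1a and -0.27 to 0.73 for Plin2. Angptl4, a secreted inhibitor of lipoprotein lipase and a PPAR target, was at 18.2 and 17.3 FPKM in glucose and 15.0 and 11.1 FPKM in glucose with lipid. Its difference of -0.43 (95% interval -0.80 to -0.06, adjusted p = 0.874) did not pass, and the PBS pair difference was -0.76 for this gene. Pdk4, which restrains glucose oxidation when fatty acids are used, was too low to test, between 0.29 and 0.82 FPKM in the 4 treated libraries.

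All 32 tested genes of fatty acid oxidation had differences between -0.25 and 0.26, and for all 32 the 95% interval lay between -1 and 1. Their median difference was 0.02, with 2 genes above and 4 below in both libraries. Acadl, long-chain acyl-CoA dehydrogenase, was at 145 and 142 FPKM in glucose and 129 and 147 FPKM in glucose with lipid. Hadha, a subunit of the mitochondrial trifunctional protein, was at 27.6 and 29.5 FPKM in glucose and 31.0 and 27.2 FPKM in glucose with lipid. In both genes the treatments overlapped. The 31 tested genes of fatty acid uptake, storage and lipolysis had a median of 0.04, or -0.08 without glucose with lipid 1, and no call. Within them Cd36, a fatty acid transporter, was at 1.41 and 0.81 FPKM in glucose and 4.70 and 0.63 FPKM in glucose with lipid, and Lpl, lipoprotein lipase, was at 1.64 and 1.49 FPKM against 7.80 and 0.94 FPKM. Both were high in glucose with lipid 1 alone, the library with the neutrophil and monocyte transcripts. Their differences of 0.55 and 0.69 became -0.35 and -0.40 without it.

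Fatty acid synthesis and sterol genes gave no call either. The 19 tested genes of fatty acid synthesis and desaturation had a median of 0.08, or 0.04 without glucose with lipid 1. Fasn, fatty acid synthase, was at 24.3 and 21.2 FPKM in glucose and 27.1 and 21.7 FPKM in glucose with lipid, a difference of 0.09 (95% interval -0.36 to 0.54). Scd2, a stearoyl-CoA desaturase, was at 90.2 and 104 FPKM in glucose and 102 and 99.7 FPKM in glucose with lipid. Both genes overlapped between treatments. Srebf1, the regulator of lipid synthesis genes, was at 29.7 and 25.7 FPKM in glucose and 36.8 and 36.8 FPKM in glucose with lipid, a difference of 0.40 (95% interval 0.08 to 0.72, adjusted p = 0.874). Its groups did not overlap, but PBS H, at 38.2 FPKM, was higher than either glucose with lipid library.

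Of 25 tested genes of cholesterol synthesis and uptake none was called, 4 were above in both libraries and 1 below, and the median was 0.07, or 0.12 without glucose with lipid 1. Nr1h3, which encodes the sterol receptor LXR alpha, was at 0.53 and 0.60 FPKM in glucose and 2.52 and 2.07 FPKM in glucose with lipid, with 0.53 and 0.99 FPKM in the tagged PBS pair and 1.70 and 1.31 FPKM in the untagged PBS pair. Both glucose with lipid libraries were above the other 6, and the difference of 1.07 (95% interval 0.48 to 1.66, adjusted p = 0.874) did not pass. Among the LXR targets, Abca1 and Abcg1, which export cholesterol, differed by 0.46 and 0.13, with intervals of -0.22 to 1.14 and -0.33 to 0.59. The whole list of 17 tested efflux and LXR genes had a median of 0.06, or -0.03 without glucose with lipid 1, and no call.

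Glucose was given to both groups, and no gene of glucose use was called. Txnip, whose transcription rises with glucose through Mlx factors, was at 138 and 178 FPKM in glucose and 169 and 236 FPKM in glucose with lipid, with overlapping groups and a difference of 0.35 (95% interval -0.15 to 0.85). The 32 tested genes of glycolysis and the pentose phosphate pathway had 8 above and 0 below in both libraries and 23 differences above 0 (15 without glucose with lipid 1). Their median was 0.11, which was -0.05 without glucose with lipid 1. Hk1, hexokinase 1, was at 41.2 and 37.6 FPKM in glucose and 55.2 and 47.8 FPKM in glucose with lipid, within the range of 43.2 to 55.6 FPKM in the PBS libraries. Its groups did not overlap, and the difference of 0.38 (95% interval 0.05 to 0.70, adjusted p = 0.874) did not pass. Eno1, an enolase of glycolysis, was at 0.97 and 2.17 FPKM in glucose and 3.69 and 6.77 FPKM in glucose with lipid, against 3.39 and 3.43 FPKM in the tagged PBS pair and 7.18 and 10.7 FPKM in the untagged PBS pair. Glucose was lowest of the 4 groups, and the direct difference of 1.27 (95% interval 0.50 to 2.05, adjusted p = 0.874) did not pass. Pdk1, which restrains pyruvate dehydrogenase, was at 49.3 and 42.8 FPKM in glucose and 39.0 and 40.4 FPKM in glucose with lipid, a difference of -0.21 (95% interval -0.53 to 0.12). The 31 tested genes of pyruvate dehydrogenase and the citrate cycle had a median of -0.02. The 71 of oxidative phosphorylation had a median of 0.00, with 12 above and 11 below, while between the PBS pairs their median was -0.27 with 54 below.

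**Figure D3:**
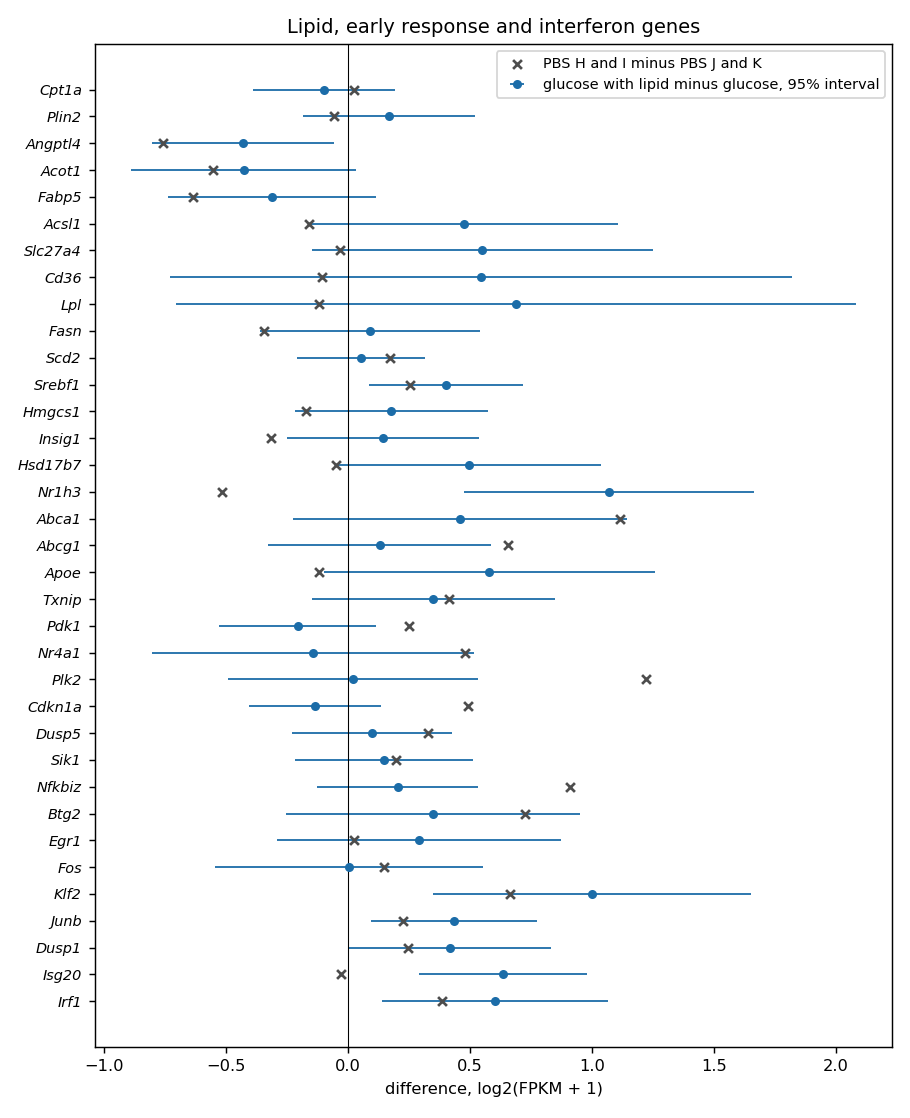
Direct difference, glucose with lipid minus glucose, with its 95% interval (blue) and PBS pair difference (cross) for 35 genes of lipid metabolism, early response and interferon response, as log2(FPKM + 1) on the horizontal axis. Cpt1a, Plin2, Nr4a1, Plk2 and Cdkn1a have intervals that include 0, and Nr1h3, Klf2, Isg20 and Irf1 have intervals above 0 before adjustment.

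Early response genes, which are switched on quickly by many stimuli, gave no call, and most of their differences were above 0. Nr4a1, an early response nuclear receptor, was at 304 and 177 FPKM in glucose and 219 and 201 FPKM in glucose with lipid, and between 24.8 and 47.0 FPKM in the 4 PBS libraries. Plk2, a stress-induced kinase, was at 72.9 and 54.9 FPKM in glucose and 57.1 and 72.1 FPKM in glucose with lipid. Cdkn1a, the cell cycle inhibitor p21, was at 57.1 and 54.4 FPKM in glucose and 51.4 and 49.9 FPKM in glucose with lipid. The direct differences were -0.14 for Nr4a1 (95% interval -0.80 to 0.52), 0.02 for Plk2 (-0.49 to 0.53) and -0.14 for Cdkn1a (-0.41 to 0.13). For Fos, a subunit of the AP-1 factor, levels were 1102 and 951 FPKM in glucose and 1145 and 923 FPKM in glucose with lipid. The treatments overlapped for Nr4a1, Plk2 and Fos, Cdkn1a was slightly lower in both glucose with lipid libraries, and in all 4 genes each treated library was above each PBS library.

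Of 33 tested early response genes none was called, 8 had both glucose with lipid libraries above both glucose libraries and 1 below. A difference above 0 was seen in 27 of the 33 (23 without glucose with lipid 1). In 8 of the 33 both glucose with lipid libraries were above all 6 others, against 613 of all 11931 genes. The median was 0.16, or 0.12 without glucose with lipid 1, against 0.28 between the PBS pairs with 15 genes above and 3 below. Klf2, a factor of cell quiescence and trafficking, was at 27.5 and 31.0 FPKM in glucose and 61.6 and 57.2 FPKM in glucose with lipid, with 17.5 and 18.6 FPKM in the tagged PBS pair and 7.49 and 16.0 FPKM in the untagged PBS pair. Its groups did not overlap, and its difference of 1.0 (95% interval 0.35 to 1.65, adjusted p = 0.874) did not pass and was 0.95 without glucose with lipid 1. Junb, another AP-1 subunit, was at 162 and 151 FPKM in glucose and 216 and 207 FPKM in glucose with lipid. Dusp1, a phosphatase that ends MAP kinase signalling, was at 507 and 509 FPKM in glucose and 694 and 665 FPKM in glucose with lipid. For all 3 genes both glucose with lipid libraries were the highest of the 8.

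Interferon response genes leaned higher in both glucose with lipid libraries, though none was called. Their summed level was 2812 and 3173 FPKM in glucose and 3194 and 3449 FPKM in glucose with lipid. It was 2481 and 2589 FPKM in the tagged PBS pair and 2385 and 2930 FPKM in the untagged PBS pair. Glucose 2 and glucose with lipid 1 were thus close in this sum. Of 52 tested members, 46 had a difference above 0 (44 without glucose with lipid 1), against 6034 of all 11931 genes. Both glucose with lipid libraries were above both glucose libraries in 21 members (40.4%, against 17.1% of all genes) and below in 3. In 18 of the 52 members they were above all 6 other libraries, against 613 of all 11931 genes. The median difference was 0.26, and 0.23 without glucose with lipid 1, against 0.08 for the PBS pair difference of the list. Irf1, an interferon-induced transcription factor, was at 184 and 169 FPKM in glucose and 266 and 271 FPKM in glucose with lipid, with 87.1 to 150 FPKM in the PBS libraries. Isg20, an interferon-induced RNA exonuclease, was at 37.6 and 42.1 FPKM in glucose and 68.6 and 56.7 FPKM in glucose with lipid, with 28.8 to 34.4 FPKM in the PBS libraries. Both were highest in the 2 glucose with lipid libraries, with differences of 0.60 for Irf1 (95% interval 0.14 to 1.07) and 0.64 for Isg20 (0.29 to 0.98), each at an adjusted p of 0.874.

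The interferon-induced GTPases that act against intracellular pathogens were among these members. Irgm2 was at 19.5 and 20.7 FPKM in glucose and 26.4 and 34.8 FPKM in glucose with lipid. Igtp was at 45.6 and 53 FPKM in glucose and 58.0 and 67.5 FPKM in glucose with lipid. Gbp2 was at 32.7 and 37.0 FPKM in glucose and 41.1 and 49.2 FPKM in glucose with lipid, and in all 3 genes the glucose with lipid libraries were above the other 6. Their differences of 0.57, 0.34 and 0.36 had 95% intervals that included 0. Ifi203 and Ifit2 went the other way, with differences of -0.34 and -0.19. Of 34 tested NF-kB and inflammatory genes none was called, 11 were above in both libraries and 0 below, and the median was 0.22, or 0.13 without glucose with lipid 1, against 0.21 between the PBS pairs. Nfkbia, the inhibitor that NF-kB induces, was at 116 and 114 FPKM in glucose and 139 and 140 FPKM in glucose with lipid.

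Genes of antigen presentation and dendritic cells gave no call among 12 tested members. In 8 (66.7%, against 17.1% of all genes) both glucose with lipid libraries were above both glucose libraries, in 0 below, and the median was 0.76, or 0.29 without glucose with lipid 1. Ciita, the master regulator of MHC class II genes, was at 0.85 and 0.72 FPKM in glucose and 2.52 and 2.31 FPKM in glucose with lipid, and at 0.49 to 1.23 FPKM in the PBS libraries. Cd74, the invariant chain of MHC class II, was at 281 and 232 FPKM in glucose and 709 and 359 FPKM in glucose with lipid. H2-Aa, a class II chain, was at 107 and 93.4 FPKM in glucose and 241 and 133 FPKM in glucose with lipid. The class II genes varied among untreated libraries too: in PBS, Cd74 ranged from 83.9 to 281 FPKM and H2-Aa from 38.7 to 141 FPKM. Siglech, a marker of plasmacytoid dendritic cells, was at 0.33 and 0.25 FPKM in glucose and 10.2 and 1.17 FPKM in glucose with lipid, and was listed at 0 in the 4 PBS libraries. The part of dendritic cells in these levels was not tested.

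No gene of stem cell identity or the cell cycle was called. The 40 tested long-term stem cell genes had a median of -0.00, which was 0.15 without glucose with lipid 1 and -0.14 without glucose with lipid 2, so the replicates stood on opposite sides of glucose. Procr, a surface marker of stem cells, was at 81.6 and 86.5 FPKM in glucose and 62.5 and 99.5 FPKM in glucose with lipid. Hlf, a stem cell transcription factor, was at 85.2 and 72.1 FPKM in glucose and 62.6 and 82.7 FPKM in glucose with lipid. Both overlapped between treatments. Angpt1, a ligand of the Tie2 receptor, was at 172 and 124 FPKM in glucose and 105 and 117 FPKM in glucose with lipid, a difference of -0.39 (95% interval -0.83 to 0.05). The 49 tested S phase genes had a median of 0.01 and the 50 tested G2 and M phase genes 0.11, or -0.01 and -0.03 without glucose with lipid 1. Mki67, a marker of cycling cells, was at 13.9 and 17.0 FPKM in glucose and 19.2 and 14.4 FPKM in glucose with lipid.

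Of 71 tested cytosolic ribosomal protein genes, 24 (33.8%, against 16.2% of all genes) were below in both glucose with lipid libraries and 5 were above. Their median was -0.11, or -0.02 without glucose with lipid 1 and -0.22 without glucose with lipid 2, and between the PBS pairs it was -0.27 with 44 genes below. Heat shock and chaperone genes had 12 of 29 below and a median of -0.09, or -0.17 without glucose with lipid 1, against -0.39 between the PBS pairs with 25 below. No gene of these lists was called. Of 45 tested lysosome and autophagy genes, 14 were above and 6 below, with a median of 0.14 that was -0.01 without glucose with lipid 1. Wipi1, which acts in autophagosome formation, was at 1.36 and 1.27 FPKM in glucose and 5.28 and 3.5 FPKM in glucose with lipid. Tfeb, the regulator of lysosomal genes, was at 10.1 and 7.84 FPKM in glucose and 16.7 and 13.0 FPKM in glucose with lipid. Both were above the other 6 libraries in the 2 glucose with lipid libraries, and neither difference (1.20 and 0.67) passed, at an adjusted p of 0.874.

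**Figure D4:**
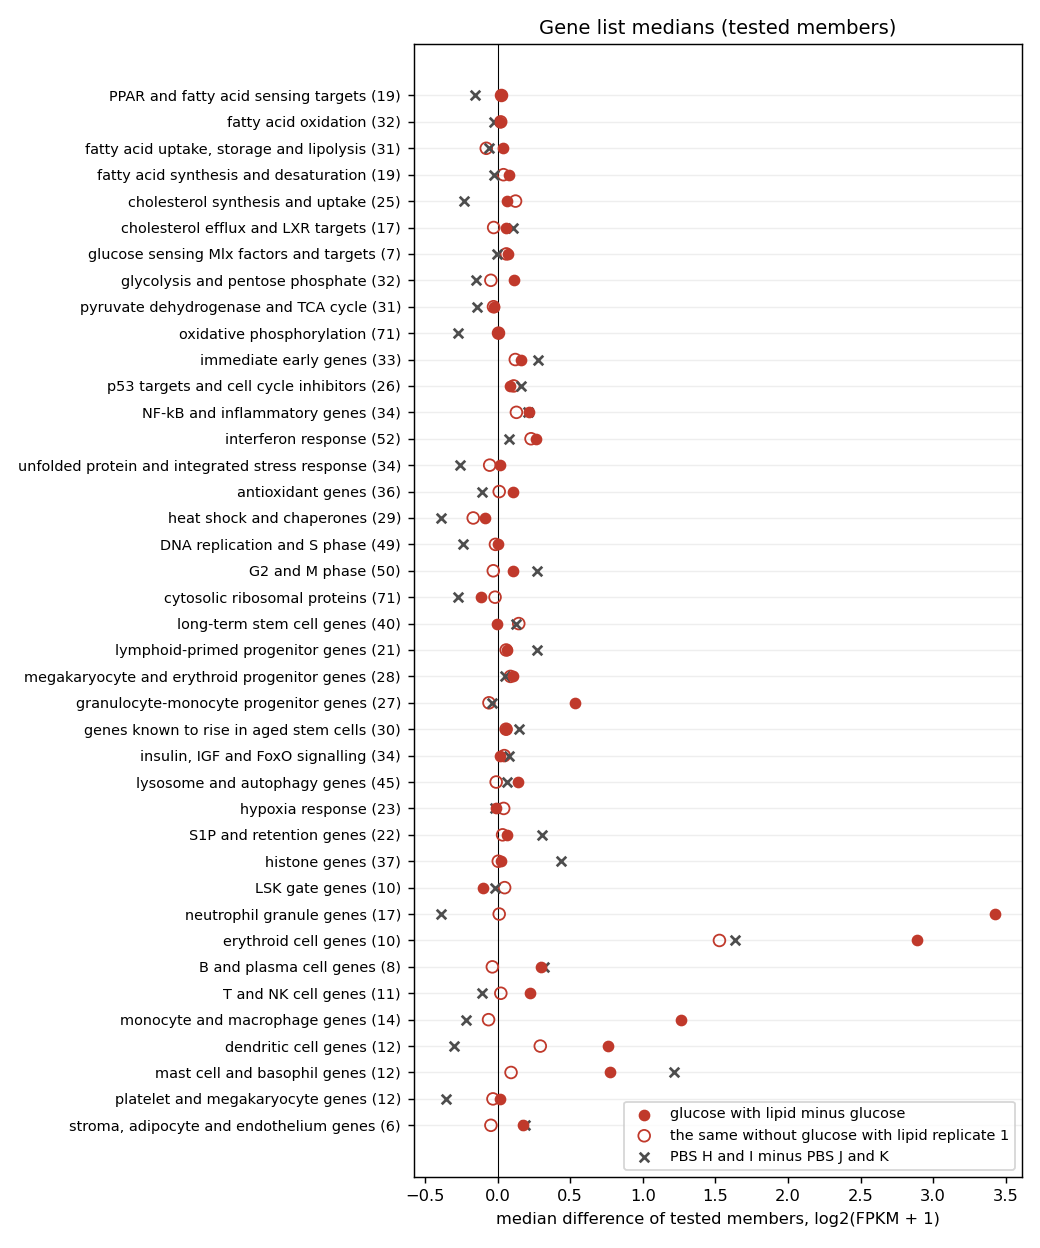
Median difference of the tested members of each of 40 gene lists (number tested in brackets) as log2(FPKM + 1) on the horizontal axis: glucose with lipid minus glucose (filled circle), the same without glucose with lipid replicate 1 (open circle) and PBS H and I minus PBS J and K (cross). The neutrophil list moves from 3.42 to 0.01 without that library, the erythroid list from 2.89 to 1.53, and the interferon list from 0.26 to 0.23.

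Outside the lists, the genes that best separated the treatments did not pass. S100a4, a calcium-binding protein of motile cells, was at 25 and 31.8 FPKM in glucose and 66.4 and 49.4 FPKM in glucose with lipid, with 34.9 to 44.8 FPKM in the PBS libraries. Cd55, a cell surface inhibitor of complement, was at 8.12 and 6.69 FPKM in glucose and 15.2 and 13.4 FPKM in glucose with lipid. Itgb7, an integrin subunit used in homing, was at 28.3 and 30.8 FPKM in glucose and 55.8 and 41.8 FPKM in glucose with lipid. In these 3 genes both glucose with lipid libraries were the highest of the 8, with differences of 0.99 ± 0.19, 0.86 ± 0.17 and 0.69 ± 0.15 (SE). Fam82a2, whose current name is Rmdn3, and Abcf3 differed by 0.62 and 0.59.

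Among genes lower with lipid, Fgfrl1, a decoy receptor of fibroblast growth factors, was at 4.97 and 4.57 FPKM in glucose and 1.71 and 0.78 FPKM in glucose with lipid, against 6.32 and 7.67 FPKM in the tagged PBS pair and 1.94 and 1.78 FPKM in the untagged PBS pair. Its direct difference of -1.39 and its PBS pair difference of 1.48 had opposite signs, and the difference between them, -2.87, did not pass (adjusted p = 0.113). Slc18a2, the vesicular monoamine transporter, was at 31.6 and 29.7 FPKM in glucose and 20.2 and 19.7 FPKM in glucose with lipid. Tgoln2, a protein of the trans-Golgi network, was at 13.5 and 11.5 FPKM in glucose and 5.95 and 5.90 FPKM in glucose with lipid. Ugcg, which makes glucosylceramide, was at 26.9 and 26.4 FPKM in glucose and 20.1 and 17.6 FPKM in glucose with lipid, with 16.4 and 17.0 FPKM in the untagged PBS pair. The groups did not overlap in these genes, and Slc18a2 and Tgoln2 were lower in both glucose with lipid libraries than in the other 6. Their differences were -0.60, -0.96 and -0.48, each at an adjusted p of 0.874. Spns2, the exporter of sphingosine 1-phosphate, was at 28.4 and 37.4 FPKM in glucose, 23.2 and 26.2 FPKM in glucose with lipid, 74.2 and 68.6 FPKM in the tagged PBS pair and 19.9 and 24.1 FPKM in the untagged PBS pair. It was called between the PBS pairs (1.66, adjusted p = 0.0192), while its direct difference was -0.39 (adjusted p = 0.874) and the difference between them -2.05 (adjusted p = 0.0765).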

How the data were processed

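RNA sequencing of sorted LSK cells gave 8 libraries in 4 groups of 2. Per the labels, cDNA synthesis used SMART-Seq HT, and sequencing libraries came from Nextera XT, which keeps no strand. The submitters' processing notes name TopHat2 2.0.13, Bowtie2 2.2.3, SAMtools 1.0, Cuffnorm 2.2.1 and the mm10 build. The deposited values are FPKM per gene symbol, a unit read from the values and from Cuffnorm's naming; its annotation, strand setting and scaling between libraries are not stated in the labels or files, and depth is known only relative to 1 library.

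The 11931 of 23284 genes that reached 1 FPKM in 2 or more of the 8 libraries were taken as log2(FPKM + 1), which understates changes of low genes. They were fitted in limma 3.58.1 (R 4.3.3) with a mean-variance trend, all 8 libraries and 4 group means, with 4 residual and 3.73 prior degrees of freedom. The contrasts were glucose with lipid minus glucose, PBS H and I minus PBS J and K, and the difference of these. P-values are 2-sided and adjusted by Benjamini-Hochberg over all tested genes, with calls at 0.05. The code was tested on simulated data. Gene positions come from GENCODE vM21 (GRCm38); 20723 symbols matched RefSeq and 2317 matched by an older symbol. Tables used pandas 2.3.3 and numpy 2.4.6 under Python 3.11.15, and figures matplotlib 3.10.9.

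The members and the 41 lists were chosen with earlier results of these data known. Named genes are, per direction, up to 12 with the largest difference among those that passed with a mean of at least 3 FPKM and separated groups (places left over by smallest p), up to 5 for the difference of differences, up to 3 per pathway list by smallest p, and 29 subject genes; small RNA and predicted genes are named only where they passed. Other list members named as examples were picked after their values were seen. A few genes are not reported here. The promoter motifs were chosen after the values were seen, and the GATA letters were shortened to their core after a longer form had been searched. Alternatives changed the pseudocount, filter, scaling, variance model, block and libraries used.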

Additional observations from a re-analysis of the deposited data

Results flagged for a closer look

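The test of the direct difference against the PBS pair difference passed for 2 microRNA genes, which is why they are listed here. For Mir3112 the difference of differences was -10.67 (limma adjusted p = 1.1e-06). The gene was listed at 0 in all 4 treated libraries and in PBS J and K, and at 1619 and 1641 FPKM in the tagged PBS pair. For Mir3061 the difference of differences was 8.87 (limma adjusted p = 4.6e-06). It was listed at 0 in all 4 treated libraries and in PBS H and I, and at 469 and 465 FPKM in the untagged PBS pair. Neither gene differed between glucose with lipid and glucose, where both are listed at 0.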

How the results depend on the processing

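Counts of genes called higher and lower with lipid were 2 and 0. They were the same with a filter of 5 FPKM, median centring and pseudocounts of 0.1 and 5. They were 1 and 4 with the 4 treated libraries alone (all small RNA genes), 0 higher without the filter, with robust moderation and without the trend, 5 higher (among them Alas2, Beta-s, Hba-a1 and Hbb-b2) after rescaling without small RNA genes, and 1 higher with globin genes summed by family. Leaving out 1 library gave 0 to 202 higher and 0 to 8 lower. Between the PBS pairs, where 5 were higher and 1 lower, the counts were 13 and 4 with those 4 libraries alone, 13 and 9 with robust moderation, 22 and 3 after rescaling and 2 and 2 without the trend, with 1 higher without the filter and 2 lower at a pseudocount of 0.1, and 2 to 12 higher and 1 to 3 lower without 1 library. For the difference of differences, 1 each way, they were 0 and 4 after rescaling, with 4 lower under robust moderation and 2 lower at 5 FPKM, and 1 to 123 higher and 1 to 18 lower without 1 library. The correlation of the direct with the PBS pair difference ran from -0.0281 to 0.0426 without 1 library and was -0.0265 after rescaling. Except where fewer libraries or genes entered, the cause was not tested.

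Replicate numbers were not used as pairs in the main fit. Deviations of glucose 1 and glucose with lipid 1 from their group means correlated at -0.0620 across genes. With 2 libraries a group, and glucose with lipid 1 apart from its replicate, this value cannot decide whether the numbers pair the treatments. With the replicate block, 0 genes were higher and 1 lower (Mir19b-1) with lipid and 4 were lower between the PBS pairs. With the sample letters as the block, 2 were lower between the PBS pairs and 2 higher for the difference of differences. Rescaling moved the median of all genes by -0.10, so list medians within that of 0 have no settled sign. Of the named genes, 6 changed sign after rescaling and 4 or 5 when a treated library was left out, and none did under the other alternatives. With 2 libraries a group and no counts, a difference under 0.43 log2 units lies within the 95% interval of the median gene.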

Other observations

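A group seen after the values were known is the zinc finger genes named Zfp. Of 315 tested, none was called in limma and 35 had an unadjusted p under 0.05. Both glucose with lipid libraries were below both glucose libraries in 111 (35.2%, against 16.2% of all genes) and above in 32 (10.2%, against 17.1%). The median difference was -0.15, with -0.11 without glucose with lipid 1, -0.20 without glucose with lipid 2 and -0.24 after rescaling without small RNA genes. Between the PBS pairs the median was 0.14, with 133 genes above and 48 below. Zfp825 was at 50.5 and 32.1 FPKM in glucose and 20.6 and 22.5 FPKM in glucose with lipid, against 40.2 and 46.6 FPKM in the tagged PBS pair and 28.6 and 25.9 FPKM in the untagged PBS pair. Zfp647 was at 5.46 and 5.50 FPKM in glucose and 2.54 and 2.86 FPKM in glucose with lipid. In both genes the glucose with lipid libraries were the lowest of the 8. Many genes of this family resemble each other, so reads may be divided between them.

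Ndufs5, a subunit of respiratory complex I, was listed at 0.0019 and 11.7 FPKM in glucose and 20.2 and 20.9 FPKM in glucose with lipid, and between 0.0030 and 0.0039 FPKM in the 4 PBS libraries. Its difference of 2.60 did not pass (limma adjusted p = 0.874). The glucose libraries lay far apart from each other, and the reason was not tested.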
